A study of Mus musculus with 37 samples.

Results

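Testis paralogues are relatives, used mainly in germ cells, of genes that nearly every cell uses. Here 9 of them were described in primordial germ cells (PGCs) of the mouse, from which eggs and sperm later form: Slc25a31, Rpl10l, Taf7l, Cyct, Tuba3a, Tuba3b, Brdt, Pgk2 and Ldhc. They were chosen by symbol, and all 9 were found among the 24318 genes of both deposited expression tables. The tested libraries were DCKO, a conditional knockout of Dnmt1, and their controls. E10.5 was represented by 3 DCKO libraries, of which 2 were female and 1 male, and by 4 control libraries, 2 of each sex. E11.5 was represented by 10 DCKO libraries, of which 6 were female and 4 male, and by 8 control libraries, 4 of each sex. The embryos came from Oct4-IRES-Gfp females homozygous for the Dnmt1 2lox allele mated with Blimp1-Cre males, the control libraries are labelled wild type, and GFP-positive cells were sorted. Blimp1-Cre acts in germ cell precursors but also in other lineages, and the sorted material was amplified before sequencing. The 12 libraries at E13.5 were not analysed here.

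Many testis paralogues are thought to have arisen as copies of genes that remain active in most tissues, and several take over an energy or protein synthesis role in sperm-forming cells. Some of their parent genes are X-linked and are silenced in meiosis, when an autosomal copy can serve instead. DNA methylation at a CpG-containing promoter is one known way by which germline genes are kept silent in somatic cells. Dnmt1 copies methylation to the new DNA strand at replication.

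Among the 9 genes the products span several roles. Slc25a31 encodes a mitochondrial carrier that exchanges ADP and ATP, Cyct the testis form of cytochrome c, Pgk2 a glycolytic kinase and Ldhc a lactate dehydrogenase. Rpl10l encodes a ribosomal protein, Tuba3a and Tuba3b encode alpha-tubulins, Taf7l a subunit of the general transcription factor TFIID and Brdt a bromodomain reader of acetylated histones. Their gene models differ in form: in the mouse GENCODE annotation of GRCm38, Rpl10l and Pgk2 have 1 exon, and the others have at least 4. Of the 9 genes only Taf7l is on chromosome X.

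Upstream sequence is shown because the members differ widely in CpG content, the substrate of DNA methylation. RefSeq promoter windows of GRCm38.p6, from 250 bases before to 50 after each annotated start, were matched for all 9 genes. The 250 bases before the start are printed for 6 of them, with each CpG in capitals: the 3 that contain an E-box (CACGTG), the 2 Tuba3 genes, whose upstream sequences share a run, and Pgk2, which was listed at 0 in every library. They lie at chr3:40708621-40708870 (Slc25a31, plus strand), chrX:134476491-134476740 (Taf7l, minus strand), chr5:107330944-107331193 (Brdt, plus strand), chr6:125286082-125286331 (Tuba3a, minus strand), chr6:145615713-145615962 (Tuba3b, plus strand) and chr17:40208610-40208859 (Pgk2, minus strand).
Slc25a31: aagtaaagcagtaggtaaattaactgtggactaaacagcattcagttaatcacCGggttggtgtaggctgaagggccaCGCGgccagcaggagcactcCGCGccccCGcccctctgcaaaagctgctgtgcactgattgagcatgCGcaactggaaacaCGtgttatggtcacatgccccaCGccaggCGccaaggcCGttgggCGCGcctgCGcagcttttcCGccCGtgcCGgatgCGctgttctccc
Taf7l: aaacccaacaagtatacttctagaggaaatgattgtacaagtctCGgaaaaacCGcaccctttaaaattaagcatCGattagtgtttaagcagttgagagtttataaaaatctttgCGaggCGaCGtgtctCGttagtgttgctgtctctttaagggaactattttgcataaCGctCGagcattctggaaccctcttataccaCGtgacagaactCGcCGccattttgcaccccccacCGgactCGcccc
Brdt: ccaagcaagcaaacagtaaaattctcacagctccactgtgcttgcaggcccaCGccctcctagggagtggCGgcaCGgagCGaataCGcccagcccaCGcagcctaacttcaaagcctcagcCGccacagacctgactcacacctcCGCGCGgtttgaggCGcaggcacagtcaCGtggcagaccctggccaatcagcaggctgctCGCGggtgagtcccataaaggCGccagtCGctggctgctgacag
Tuba3a: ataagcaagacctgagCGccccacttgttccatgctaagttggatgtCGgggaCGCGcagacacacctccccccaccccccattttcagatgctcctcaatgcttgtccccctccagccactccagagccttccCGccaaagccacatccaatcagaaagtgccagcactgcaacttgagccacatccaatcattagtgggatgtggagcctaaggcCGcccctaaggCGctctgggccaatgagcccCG
Tuba3b: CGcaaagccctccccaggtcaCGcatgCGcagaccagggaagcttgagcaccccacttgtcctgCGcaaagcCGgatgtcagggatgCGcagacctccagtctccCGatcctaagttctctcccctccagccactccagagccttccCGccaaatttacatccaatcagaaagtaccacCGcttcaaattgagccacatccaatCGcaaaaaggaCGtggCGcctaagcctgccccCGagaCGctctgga
Pgk2: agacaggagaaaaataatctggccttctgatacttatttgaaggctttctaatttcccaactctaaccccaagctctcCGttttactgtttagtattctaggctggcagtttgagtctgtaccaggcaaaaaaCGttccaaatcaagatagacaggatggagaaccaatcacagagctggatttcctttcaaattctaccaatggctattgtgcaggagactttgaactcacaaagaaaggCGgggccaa

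Brdt and Slc25a31 held 23 and 22 CpG in their windows of 300 bases, more than 78.5% and 76.9% of 32851 windows of the same length. Taf7l held 17, Tuba3b 16, Rpl10l 13, Tuba3a 12 and Cyct 8, while the median window held 7. Pgk2 held 4, and the 2 annotated starts of Ldhc held 9 and 3. Windows of their broadly expressed counterparts held from 7 CpG (Tuba1c) to 46 (Brd3), so high CpG content was not particular to the members. Among the members, Taf7l had the highest ratio of observed to expected CpG, 1.03, above 95.5% of windows. The E-box CACGTG, which reads the same on both strands, was in 3 of 9 members, 93 bases before the start in Slc25a31, 78 in Brdt and 49 in Taf7l, against 7.15% of all windows. It was in 1 of the 12 counterparts with a window (Ldha). The motif TCCCGC, searched on both strands, was in 5 of 9 members and in 6 of 12 counterparts, against 19.975% of windows. In Tuba3a and Tuba3b it lies inside a run of 33 identical bases. A match describes the letters only, and methylation of these windows was not examined here.

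**Figure D1:**
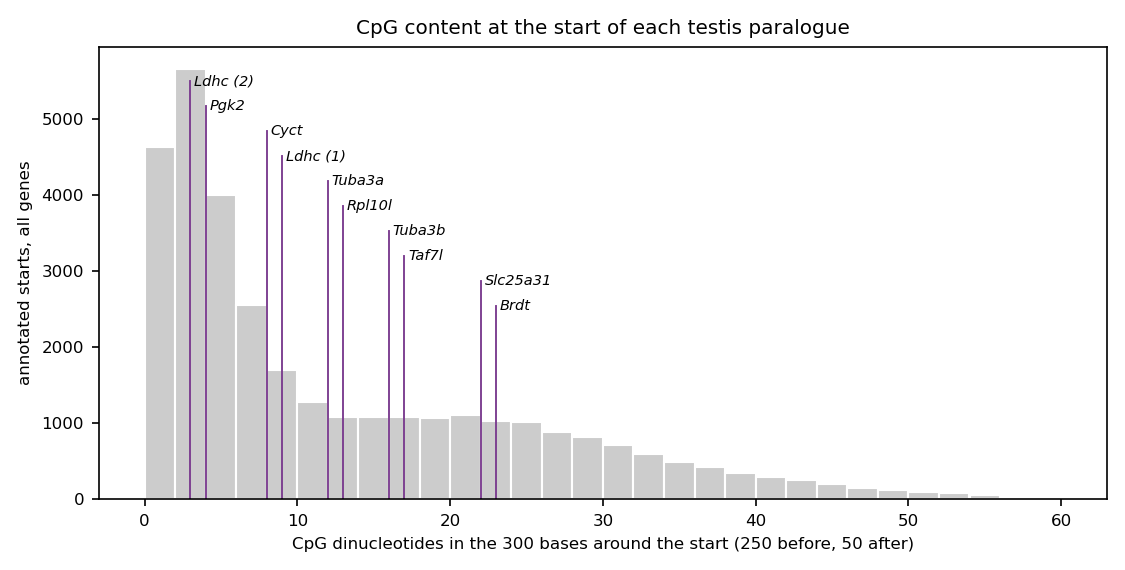
Grey bars count annotated starts of all genes by the number of CpG in 300 bases, and each purple line marks a testis paralogue (Ldhc has 2 starts). Brdt with 23 and Slc25a31 with 22 lie farthest right, and Pgk2 with 4 lies near the left.

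Before the members, the labels were checked on the targeted gene. Dnmt1 averaged 29.6 ± 16.3 RPKM in DCKO libraries and 130 ± 76.6 RPKM in control libraries at E11.5 (SD, n = 10 and 8; exact permutation p = 4.57e-05, two-sided), and its groups did not overlap. Its E10.5 means were 21.5 ± 7.43 RPKM in DCKO and 90.9 ± 15.1 RPKM in control libraries (SD, n = 3 and 4; exact permutation p = 0.0286, the smallest that 35 splits allow). RPKM is reads scaled by transcript length and by the mapped reads of the library, so that levels of different genes can be set side by side. Here the lengths used were not stated and the material was amplified, so levels of different genes compare only roughly. Library depth is unknown; RPKM summed to between 669740 and 1121158 in the E10.5 libraries and to between 516450 and 1027688 in the E11.5 libraries. In sorted bulk samples, fewer cells of a type and less RNA per cell cannot be told apart.

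Of the 9 paralogues, 8 were measured above 0 in at least some libraries of both stages and 1 was not. Pgk2 was listed at 0 in all 7 libraries of E10.5 and in all 18 of E11.5, so no fold is given. By mean over the E11.5 libraries, the order was Cyct (174 RPKM), Rpl10l (45.5 RPKM), Tuba3a (36.5 RPKM), Slc25a31 (11.505 RPKM), Brdt (4.79 RPKM), Ldhc (4.65 RPKM), Tuba3b (4.36 RPKM) and Taf7l (1.24 RPKM). Cyct stood above 97.8% of the genes of the table and Taf7l above 49.7%. Each gene's range over the libraries overlapped that of its neighbours in this order. Brdt, Ldhc and Tuba3b in particular differed in mean by less than the spread of any of them.

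**Figure D2:**
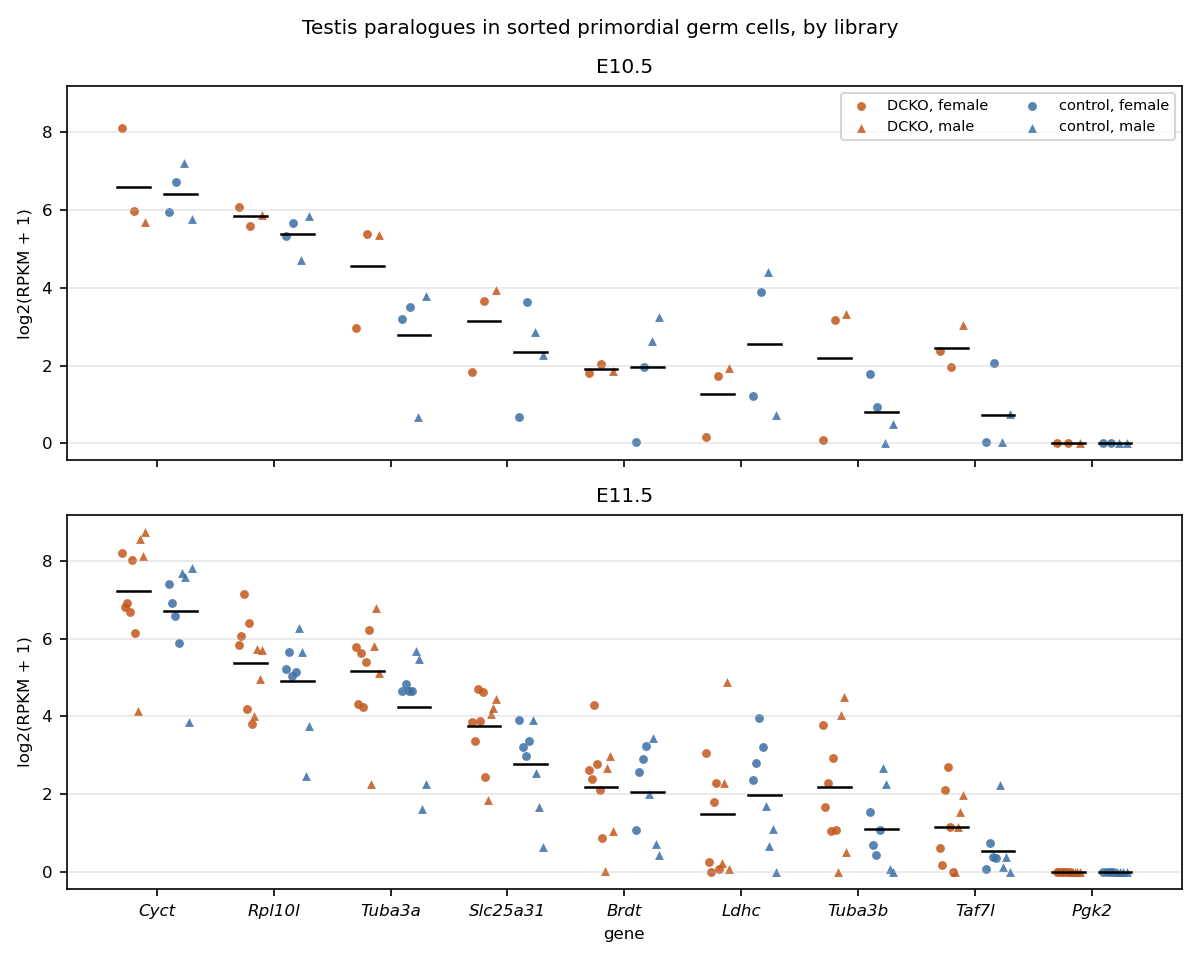
Each point is a library's log2(RPKM + 1), DCKO left of control, circles female and triangles male, with black bars at the group means. DCKO and control libraries overlap for every gene at both stages, and Pgk2 is at 0 throughout.

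Slc25a31 was the member with the smallest p when genotype was tested over both sexes at E11.5, and its groups overlapped. Its lowest, median and highest values were 2.60, 14.8 and 25.2 RPKM in DCKO libraries and 0.553, 7.60 and 14.05 RPKM in control libraries (means 14.7 ± 7.65 and 7.52 ± 4.97, SD). In all, 8 of 10 DCKO libraries were above the control median. The genotypes differed by 0.95 on the log2 scale (SE 0.47), with an adjusted p of 0.902 from limma over all tested genes and an exact permutation p of 0.0643. Without male control 4 and male DCKO 4, the libraries in which the fewest genes reached 1 RPKM, it was 0.56. At E10.5 it had 2.57, 11.7 and 14.3 RPKM in DCKO libraries and 0.608, 11.47, 6.22 and 3.81 RPKM in control libraries, a log2 difference of 0.90 (SE 0.86; limma adjusted p = 0.991). The E10.5 difference was 0.24 without female control 1 and 1.72 without female control 2.

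The testis form of cytochrome c, Cyct, was the most abundant member and its libraries spread widely. At E11.5 it had 16.5, 189 and 429 RPKM as its lowest, median and highest in DCKO libraries and 13.4, 143 and 225 RPKM in control libraries, a log2 difference of 0.55 (SE 0.62; limma adjusted p = 0.967). Both lowest values were in male libraries, and the difference was 0.07 without male control 3 and 1.09 without male DCKO 1. At E10.5 it had 275, 61.5 and 50.2 RPKM in DCKO libraries and 61.0, 104, 148 and 53.3 RPKM in control libraries, a log2 difference of 0.10 (SE 0.64; limma adjusted p = 0.992) that turned to -0.59 without female DCKO 1. Cyct made up 69.3% of the RPKM of Cyct and Cycs, the somatic cytochrome c gene, in the median DCKO library of E11.5 and 62.02% in the median control library. It exceeded Cycs in 7 of 10 DCKO libraries and 6 of 8 control libraries at that stage, and in 1 of 3 DCKO and 2 of 4 control libraries at E10.5. Of Cycs's transcript words of 50 bases, 28.5% are shared with other genes, mainly pseudogenes, so its level carries that uncertainty. Cycs has 3074 such words and Cyct 606. The transcript lengths used for RPKM were not stated, and the share of the pair depends on them.

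**Figure D3:**
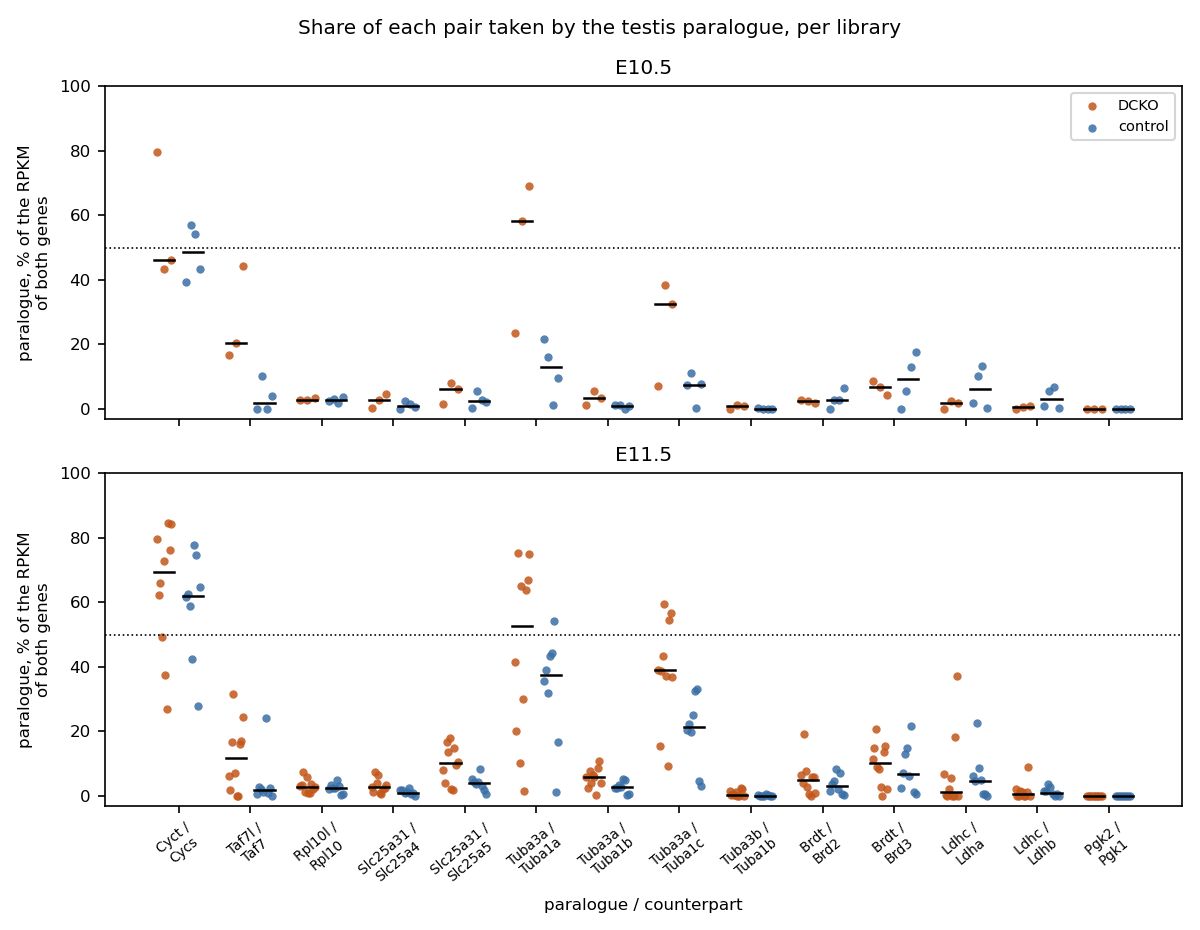
Each point gives, for a library, the paralogue's percent of the RPKM of itself plus the counterpart named below it, DCKO left of control, with black bars at the medians and a dotted line at 50%. Points of Cyct pass that line at both stages, with E11.5 medians of 69.3% in DCKO and 62.02% in control libraries, as do points of Tuba3a beside Tuba1a, and at E11.5 beside Tuba1c.

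Rpl10l was measured in every library, at 12.9, 52.0 and 140 RPKM (lowest, median, highest) in DCKO and 4.56, 35.2 and 75.8 RPKM in control libraries at E11.5. The log2 difference was 0.44 (SE 0.52; limma adjusted p = 0.969), and 0.096 without male control 3. At E10.5 the values were 66.2, 47.2 and 57.7 RPKM in DCKO libraries and 39.3, 49.9, 25.4 and 56.0 RPKM in control libraries (log2 difference 0.44, SE 0.40; limma adjusted p = 0.991). Its X-linked counterpart Rpl10 averaged 1525 RPKM at E11.5, and Rpl10l was 2.93% of the pair in the median DCKO library and 2.43% in the median control library. Rpl10 shares 79.6% of its 50-base words with other genes, against 7.60% for Rpl10l.

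Among the alpha-tubulins, Tuba3a and Tuba3b each share 50-base words, mainly with the other (32.4% of Tuba3a's words and 27.4% of Tuba3b's), so reads can be split between them and both levels are uncertain. Tuba3a had 3.81, 44.9 and 110 RPKM (lowest, median, highest) in DCKO libraries and 2.07, 24.3 and 50.7 RPKM in control libraries at E11.5, a log2 difference of 0.89 (SE 0.61; limma adjusted p = 0.946). It was 0.54 without male control 3 and 1.35 without male DCKO 1. At E10.5 Tuba3a was at 6.76, 40.5 and 40.2 RPKM in DCKO libraries and 8.18, 10.4, 0.610 and 12.8 RPKM in control libraries, so 2 of 3 DCKO libraries stood above every control. Slc25a31, Rpl10l, Taf7l and Tuba3b had the same count at E10.5, Cyct had 1, and Brdt and Ldhc had 0. The share of all genes with such a count was not computed. The log2 difference of Tuba3a at E10.5 was 1.74 (SE 0.95; limma adjusted p = 0.991), and 0.81 without male DCKO 1. The gene overlaps 4930417O13Rik on the other strand, and the counting is not stated to use strand.

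Tuba3b was at 0.0609, 8.02 and 9.04 RPKM in DCKO libraries and 2.47, 0.912, 0 and 0.413 RPKM in control libraries at E10.5 (log2 difference 1.39, SE 0.97; limma adjusted p = 0.991), and the difference was 0.26 without male DCKO 1 and 2.44 without female DCKO 1. At E11.5 it was listed at 0 in male DCKO 1 and male control 4, with a median of 3.04 RPKM in DCKO and 0.875 RPKM in control libraries and highest values of 21.7 and 5.44 RPKM. The log2 difference was 1.10 (SE 0.65; limma adjusted p = 0.912), with 8 of 10 DCKO libraries above the control median. Tuba3a made up 52.6% of the RPKM of Tuba3a plus Tuba1a in the median DCKO library of E11.5 and 37.3% in the median control library, and it exceeded Tuba1a in 5 of 10 DCKO libraries and 1 of 8 control libraries. At E10.5 it exceeded Tuba1a in 2 of 3 DCKO and 0 of 4 control libraries, and at E11.5 it exceeded Tuba1c in 3 of 10 DCKO and 0 of 8 control libraries. Tuba1a shares 75.5% of its 50-base words with other genes, so its level is uncertain too. Across libraries the log2 values of Tuba3a and Tuba3b moved together (Pearson r 0.752 at E11.5 over 18 libraries; at E10.5 r 0.833 over 7), a description in which the shared reads enter.

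Taf7l and Brdt are the 2 members that act on transcription and chromatin. Taf7l had 4.14, 2.90 and 7.28 RPKM in DCKO libraries and 0.0183, 3.20, 0.0191 and 0.695 RPKM in control libraries at E10.5, with overlap only through female control 2. The log2 difference was 1.73 (SE 0.77; unadjusted limma p = 0.0531, adjusted p = 0.991), and an exact permutation gave p = 0.0857. At E11.5 it was listed at 0 in female DCKO 6, male DCKO 1 and male control 4; the medians were 1.23 RPKM in DCKO and 0.299 RPKM in control libraries, and the highest 5.55 and 3.73 RPKM (log2 difference 0.61, SE 0.45; limma adjusted p = 0.946). Taf7l was 20.4% of the RPKM of Taf7l plus Taf7 in the median DCKO library of E10.5 and 2.00% in the median control library, and at E11.5 11.6% and 1.84%. Both genes enter this share, and the log2 difference of Taf7 itself was -0.69 at E10.5 (SE 0.44) and -0.53 at E11.5 (SE 0.33). The fold change of so low a gene depends on the pseudocount: at 0.1 the E10.5 difference was 3.34.

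Brdt had 0.0172, 4.70 and 18.7 RPKM (lowest, median, highest) in DCKO libraries and 0.357, 3.95 and 9.97 RPKM in control libraries at E11.5, a log2 difference of 0.05 (SE 0.56; limma adjusted p = 0.995) whose sign changed under other settings. At E10.5 it had 2.48, 3.13 and 2.63 RPKM in DCKO libraries and 0.0312, 2.88, 5.16 and 8.56 RPKM in control libraries (log2 difference 0.12, SE 0.78; limma adjusted p = 0.992), which was -0.56 without female control 1 and 0.92 without male DCKO 1.

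Ldhc was the member whose estimate was below 0 at both stages. At E10.5 it had 0.121, 2.31 and 2.83 RPKM in DCKO libraries and 1.33, 13.97, 20.03 and 0.646 RPKM in control libraries, where 2 controls were far above the rest (log2 difference -1.22, SE 1.08; limma adjusted p = 0.991). It was -0.45 without female control 2. At E11.5 the lowest, median and highest were 0, 1.33 and 28.6 RPKM in DCKO libraries and 0, 3.19 and 14.7 RPKM in control libraries, with a log2 difference of -0.42 (SE 0.63; limma adjusted p = 0.975) that was 0.22 with library weights. It was -0.93 without male DCKO 3, -0.15 without male DCKO 1 and -0.12 without male DCKO 4. The zeros were in female DCKO 3 and male control 4.

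Sex was examined at E11.5, where all 4 groups had at least 4 libraries. In females Ldhc ran from 0 to 7.29 RPKM in DCKO libraries and from 4.17 to 14.7 RPKM in control libraries, a log2 difference of -1.84 (SE 0.85; limma adjusted p = 1.00, unadjusted 0.0423). In males it was at 0.168, 3.90, 28.6 and 0.0498 RPKM in DCKO libraries and at 2.22, 0.601, 1.17 and 0 RPKM in control libraries. The male log2 difference was 1.00 (SE 0.93), with male DCKO 3 far above the other male libraries. The difference between these effects, female minus male, was -2.84 (SE 1.25; limma adjusted p = 0.995, unadjusted 0.0355). For Slc25a31 the male difference was 1.45 (SE 0.69; limma adjusted p = 0.717, unadjusted 0.0493). All 9 tested markers of gonadal somatic cells and mesenchyme had an estimate above 0 in the female comparison (median 0.62) and below 0 in the male comparison (median -1.25), and their part in these results was not tested. Taf7l, on chromosome X, had a female minus male difference of -0.17 (SE 0.45; limma adjusted p = 0.976).

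Across all these comparisons no member passed the adjusted threshold of 0.05. At E11.5 0 of 8 were called for genotype, where 0.0237% of 12667 tested genes were. No member passed at E10.5 either, where 0% of 11584 genes did. The targeted gene Dnmt1 was not called there either, with a log2 difference of -2.07 and a limma adjusted p of 0.991. For genotype in females, genotype in males, their difference and sex, 0 of 8 members were called, beside 0.00789%, 0.0316%, 0% and 0.0395% of genes. Dnmt1 was called for genotype over both sexes at E11.5 (limma adjusted p = 0.0355). It was not called in females (limma adjusted p = 0.567) or in males (limma adjusted p = 0.585). A comparison that missed the targeted gene cannot show that a member was unchanged. At an unadjusted p under 0.05, 0 of 8 members passed for genotype at E11.5 (5.46% of genes) and 0 of 8 at E10.5 (3.09%). In females 1 passed (Ldhc, beside 2.17% of genes), in males 1 (Slc25a31, beside 6.95%), for the difference between sexes 1 (Ldhc, beside 3.58%) and for sex 0 (5.70%). No member's genotype groups were free of overlap at E11.5, where 0.0395% of genes had such groups, or at E10.5, where 5.15% did.

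By direction alone, 7 of 8 members had an estimate above 0 at E11.5, where 45.0% of all genes did, and the median member was at 0.58 against -0.06 for all genes. At E10.5 7 of 8 were above 0 beside 46.8% of genes, with a median of 0.67 against -0.05. These 8 genes passed the filter on low values and are not all 9 members. Some reached the mean of 1 RPKM through DCKO libraries only: Taf7l averaged 1.69 RPKM in DCKO and 0.684 RPKM in control libraries at E11.5, and at E10.5 4.77 and 0.984 RPKM, as did Tuba3b at E10.5 with 5.71 RPKM in DCKO and 0.948 RPKM in control libraries. The counts therefore support no statement on direction. Brdt and Cyct at E10.5 and Brdt at E11.5 also changed sign under other settings, and at E10.5 Brdt averaged 2.75 RPKM in DCKO and 4.16 RPKM in control libraries, with 0 of 3 DCKO libraries above the control median. The broadly expressed counterparts gave 3 of 14 above 0 at E11.5 (median -0.20) and 4 of 14 at E10.5 (median -0.13). At E11.5 the estimates were -0.33 for Slc25a4, -0.13 for Slc25a5, -0.44 for Pgk1, -0.48 for Ldha and -0.23 for Ldhb. Tuba1c (-0.58), Taf7 (-0.53), Brd2 (-0.16), Brd3 (-0.27) and Tuba1b (-0.088) were also below 0, and Cycs (0.11), Rpl10 (0.13) and Tuba1a (0.21) were above it. Tuba1a had the smallest p of them at E10.5, a log2 difference of -1.19 (SE 0.50; limma adjusted p = 0.991). No counterpart was listed at 0 in any library.

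**Figure D4:**
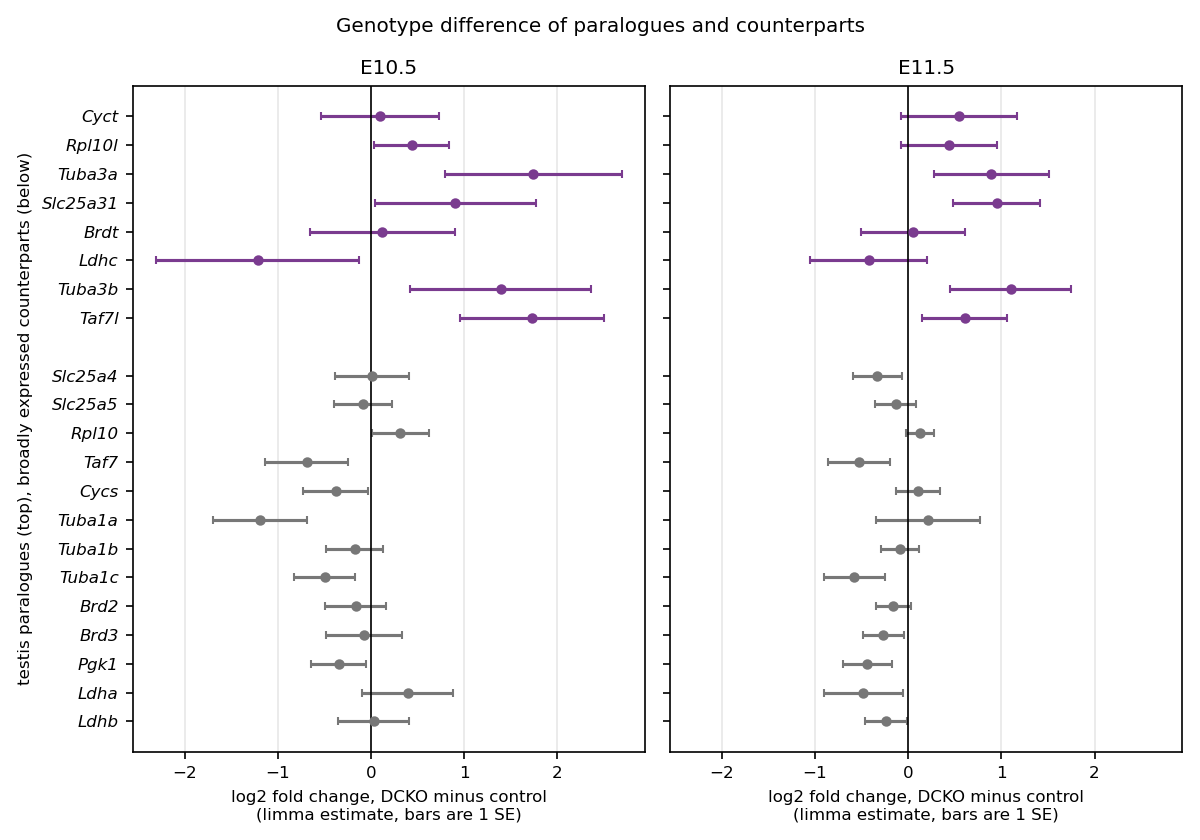
Points are limma log2 fold changes, DCKO minus control, with bars of 1 SE, for the 8 tested paralogues (purple, top) and 13 counterparts (grey, below). At both stages 7 of the 8 paralogues lie right of 0, while 4 of the 13 counterparts drawn do at E10.5 and 3 of the 13 at E11.5. Of all tested genes, 46.8% were above 0 at E10.5 and 45.0% at E11.5. Taf7l at both stages and Tuba3b at E10.5 passed the filter on low values through DCKO libraries only, so these counts support no statement on direction.

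Further testis paralogues were set beside the 9 from a list of 22. Of the 13 tested at E11.5, 9 had an estimate above 0 (median 0.16), beside 45.0% of all genes, and 0 were called. Cox7b2, a cytochrome c oxidase subunit, differed by 1.27 on the log2 scale (limma adjusted p = 0.912), and Hspa2, a heat shock protein, by -0.82 (limma adjusted p = 0.909). At E10.5 8 of 12 were above 0 (median 0.38), beside 46.8% of all genes. Cox6b2, another oxidase subunit, had the smallest p there, with a log2 difference of 2.24 (SE 0.59, limma adjusted p = 0.991, unadjusted 0.0046). Cox7b2 followed with 1.31 (SE 0.77, limma adjusted p = 0.991). Cox6b2 and Rpl39l averaged 94.9 and 77.4 RPKM at E11.5, in the range of the higher members. Of 13 other germline genes known to be repressed by methylation, 11 were above 0 at E11.5 (median 0.75) and 12 at E10.5 (median 1.02). The shares of all genes were 45.0% and 46.8%, and none of the 13 was called. At an unadjusted limma p under 0.05, 4 of the 13 passed at E11.5 (Asz1, Dazl, Ddx4 and Mael, beside 5.46% of genes). At E10.5 3 did (Dazl, Gpat2 and Stk31, beside 3.09% of genes). Both lists were chosen with earlier results of these data known, so their counts support no statement on direction. Dazl, an RNA-binding regulator of germ cell development, differed by 2.08 (SE 0.41; limma adjusted p = 0.113) at E11.5 and by 2.58 (SE 0.64; limma adjusted p = 0.991) at E10.5. Ddx4, an RNA helicase of germ cells, differed by 0.94 at E11.5 (SE 0.40; limma adjusted p = 0.902), and Gpat2 by 2.37 at E10.5 (SE 0.68; limma adjusted p = 0.991). Genes of late spermatogenesis were listed at 0 in most libraries: none of 10 passed the filter at either stage, and the highest value was 5.28 RPKM, for Acrv1 in female DCKO 6.

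In some libraries nearly all members were low together. The mean log2(RPKM + 1) over 8 members was 1.56 in male DCKO 1, 1.49 in male control 3 and 1.87 in male control 4, and at least 2.58 in the other libraries of E11.5. Cyct was the exception in male control 4, where its 225 RPKM was the highest of the E11.5 control libraries. In male control 3 the mean over 10 PGC identity genes was 3.51, below all others, and that over 25 somatic and blood markers was 4.53, above all others, with 0 of the 25 at 0. Male DCKO 1 stood at 5.14 and 2.68 on these measures. Male control 4 had PGC genes at 6.56 and somatic markers at 0.698 with 15 of 25 at 0, and the fewest genes at 1 RPKM or more (8277). Female DCKO 4 had somatic markers at 3.76 and members at 3.42. Without the 3 libraries highest in somatic markers, the E11.5 log2 difference was 1.16 for Slc25a31, 1.09 for Tuba3a and 0.66 for Cyct. With all libraries it was 0.95, 0.89 and 0.55. The other tested members are not given for this setting, so these values describe no trend of the members. PGC identity genes were split 5 of 10 above 0 between genotypes at each stage. Somatic markers gave 1 of 9 (gonadal and mesenchymal), 3 of 5 (endothelial), 0 of 3 (erythroid) and 0 of 2 (macrophage) above 0 at E11.5. The macrophage genes Tyrobp and C1qb differed by -1.66 and -1.24 on the log2 scale (limma adjusted p = 0.849 and 0.884). The part of these cells in the members' differences was not tested.

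**Figure D5:**
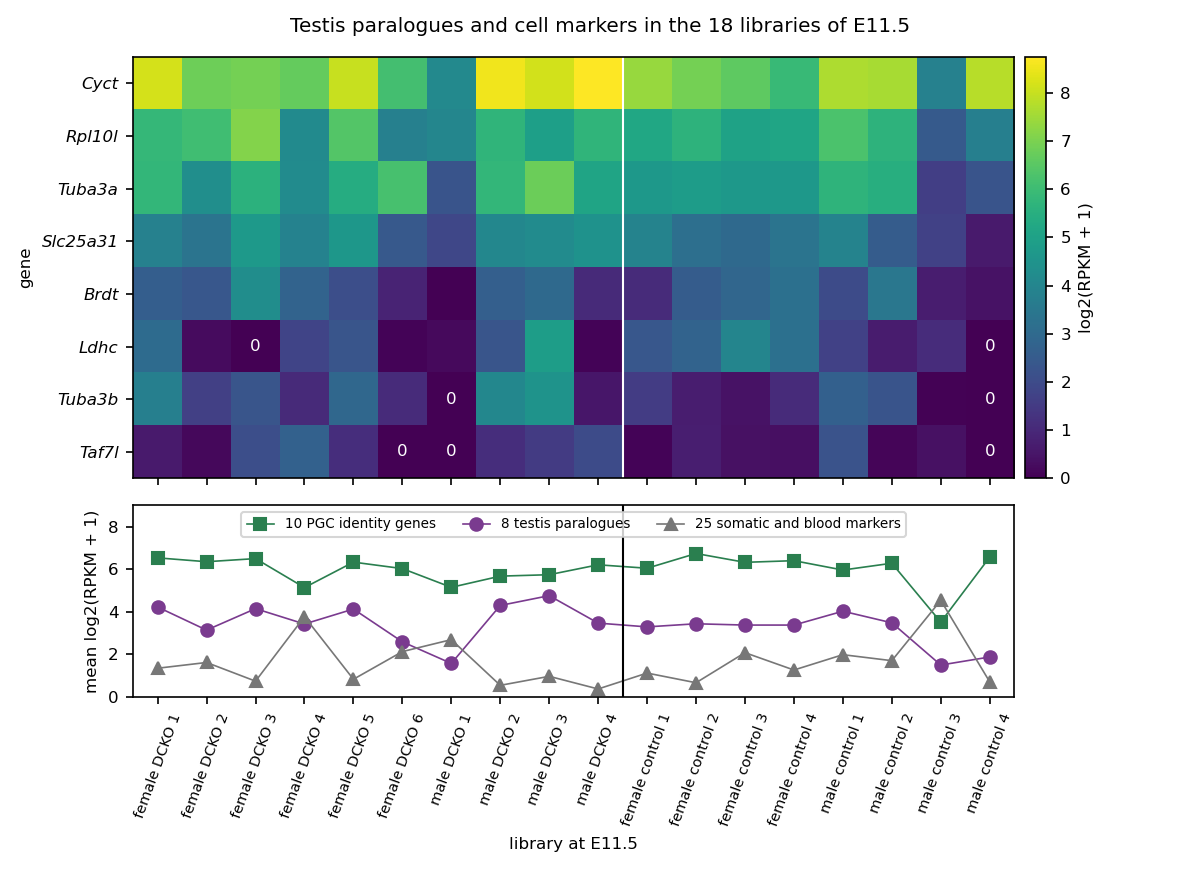
The upper panel shades log2(RPKM + 1) of 8 testis paralogues in each E11.5 library (a white 0 marks a value listed at 0), and the lower panel gives mean log2(RPKM + 1) of PGC identity genes, the paralogues and somatic or blood markers; DCKO libraries are left of the dividing line. The paralogue mean is 1.56 in male DCKO 1, 1.49 in male control 3 and 1.87 in male control 4, below every other library.

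Over the 18 libraries of E11.5, the genes whose log2 values most resembled a member's were, for Cyct, Lsm3 (r 0.916), Mov10l1 (0.911) and Hat1 (0.895), and for Tuba3a, Tex19.1 (0.918), 4930550L24Rik (0.894) and Rbm44 (0.863). For Slc25a31 they were A430005L14Rik (0.872), Usp26 (0.869) and Ccdc73 (0.864), and for Rpl10l Nodal (0.839), Ccnb1 (0.822) and Ccdc73 (0.821). Taf7l was most like Tdrd9 (0.819), Tuba3b like Cct4 (0.883), Brdt like Grhl1 (0.873) and Ldhc like Syne4 (0.907). The points share libraries, and these values are descriptions with no test.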

How the data were processed

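The authors deposited 1 table per stage in RPKM, reads scaled by transcript length and library total, with 1 column per library. Build mm9, TopHat2 2.1.0, Cufflinks 2.2.1 and Cuffdiff are named per the submitters' processing notes, without saying which made the tables. Gene models, strand use and depth were not stated, so no counting interval is given. An exact 0 can be a failed estimate: some library lists 0 for 104 of the 3491 E11.5 genes whose median reached 20 RPKM, and for 79 of 3595 such E10.5 genes. The labels do not say whether libraries came from separate embryos, so p-values measure the spread between these libraries, which may be technical. Groups came from the labels.

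Tests used limma 3.58.1 in R 4.3.3 (trend = TRUE) on log2(RPKM + 1) for genes averaging at least 1 RPKM in a table, two-sided, Benjamini-Hochberg adjusted over all tested genes. E11.5 was modelled with a mean per sex and genotype, and E10.5 with genotype plus sex. Fold changes on this scale understate changes of low genes. Single members and Dnmt1 also had an exact permutation test of the genotype labels. Stages were not tested against each other, since the tables may be normalized separately. The members and gene lists were chosen with earlier results of these data known. The rule for naming genes covered all members and counterparts, the 2 smallest p of each other list where none was called, and the 3 genes most correlated with each member. Of the cell marker lists only the macrophage genes are named, and for 4 members only the most correlated gene is given. The values of 1 counterpart are not reported here. Rpl39l and Acrv1 were named after their values were seen. Alternatives were pseudocounts of 0.1 and 0.5, no filter, a minimum of 5 RPKM, other scalings, library weights, other models, blocks and libraries left out. The limma step was tested on simulated data. Shared transcript words and exons used GENCODE M21 on GRCm38, a build other than the authors' mm9, and no coordinates were carried between builds.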

Additional observations from a re-analysis of the deposited data

Results flagged for a closer look

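At E11.5, 32 groups were examined, each the 4 or 6 libraries of one sex and genotype for 1 of 8 members. In 4 of these groups the highest or lowest library lay apart by a gap that was large beside the group's own range. Chance flags about 1 group in 20, but the groups share libraries and are not independent. Slc25a31 was at 2.60 RPKM in male DCKO 1, the lowest of 4, with the nearest at 15.6 RPKM. Cyct was at 16.5 RPKM in the same library, the nearest being 280 RPKM, and at 13.4 RPKM in male control 3, the nearest being 192 RPKM. Tuba3a was at 27.7 RPKM in female control 2, the highest of 4, where the other values ran only from 24.2 to 24.3 RPKM. That gap is small in RPKM and was flagged because the other values nearly coincide.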

How the results depend on the processing

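No member was called in any comparison under any alternative run, including a replicate block, whether on replicate numbers or title numbers (0 members called). Neither number was taken to pair the libraries: at E11.5 deviations from the group means correlated above 0.1 in 2 of 8 pairs with the same replicate number. For the title number, which stands before the dash in a sample's title and whose meaning the labels do not give, they did so in 6 of 13 pairs, up to 0.49 (median 0.077, against -0.0047 in other pairs). The pair at 0.49 was female DCKO 4 with male control 3, the libraries highest in somatic markers (3.76 and 4.53). Male DCKO 1 with male control 3, which differ in title number, reached 0.38. Some libraries of one group also share a title number, such as male DCKO 2 and male DCKO 3. The main fits and the permutation tests treated all libraries as independent and took no account of this number. Estimates that changed sign were Brdt at E11.5 (-0.091 with a pseudocount of 0.1, -0.047 without male control 4 and male DCKO 4, which had the fewest genes at 1 RPKM or more, and -0.18 to 0.35 leaving out each library, with -0.18 without female control 1, -0.13 without female DCKO 3, -0.11 without male DCKO 2, -0.17 without male DCKO 3, -0.11 without male control 3 and -0.15 without male control 4), Ldhc at E11.5 (0.22 with library weights), Cyct at E10.5 (-0.39 with library weights, -0.041 with the replicate block on replicate numbers, -0.043 without male control 2, the library highest in somatic markers, and -0.59 to 0.70 leaving out each library, with -0.24 without female control 1) and Brdt at E10.5 (-0.068 with genotype as the only term, and -0.56 to 0.92 leaving out each library, with -0.017 without female DCKO 1 and -0.14 without female DCKO 2); the cause was not tested. Over all alternatives the E11.5 log2 difference ran from 0.56 to 1.25 for Slc25a31, 0.041 to 0.73 for Rpl10l, 0.22 to 1.18 for Taf7l, 0.070 to 1.09 for Cyct, 0.54 to 1.35 for Tuba3a, 0.73 to 1.61 for Tuba3b and -1.02 to 0.22 for Ldhc; at E10.5 it ran from 0.24 to 1.72 for Slc25a31, 0.10 to 0.60 for Rpl10l, 0.94 to 3.34 for Taf7l, 0.81 to 2.57 for Tuba3a, 0.26 to 2.44 for Tuba3b and -1.90 to -0.45 for Ldhc. Over all genes, calls ran from 2 to 5 for genotype at E11.5 (3 as reported), from 1 to 4 in females (1) and in males (4), from 0 to 1 for their difference (0), from 1 to 51 for sex (5; 51 with library weights) and from 0 to 11 for genotype at E10.5 (0; 11 without male DCKO 1). Depth is unknown, and E10.5 had 3 DCKO libraries.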
